A study of Pseudotsuga menziesii with 10 samples.

Results

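A group of 73 assembled transcripts (contigs) of Douglas-fir (Pseudotsuga menziesii) was low in the female gametophyte in early June, high there on 6 July, and also present in cone tissue. The members were chosen by measured values among 54889 contigs. The log2 value had to be higher by 4 units or more on 6 July than on 10 June in pollinated and in unpollinated megagametophytes, a rise of at least 16-fold on that scale. The higher of the cone scale and cone bract values had to be at least 3.46, which is 10 FPKM (a fragment count adjusted for contig length and for library size). Of the 151 contigs with such a rise in both states, 73 met the cone condition and 78 did not. The levels of 10 June, of 6 July and of cone tissue therefore describe the choice, while the libraries of 22 and 30 June took no part in it.

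The megagametophyte is the haploid body of a conifer seed that bears the egg cells and later feeds the embryo with the reserves it has stored. It grows inside an ovule borne on the surface of a cone scale, and scale and bract belong to the diploid mother tree. In Douglas-fir the megagametophyte also develops in ovules that received no pollen. In conifers it is known to fill with storage protein and lipid as the seed matures.

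All libraries came from 1 clone, genotype 970, grown in an orchard and sampled in 2011, and their polyA RNA was sequenced. Cones were bagged before pollen shed and then either given a mix of pollen from several trees or left without pollen. Megagametophytes of each state were dissected on 10, 22 and 30 June and 6 July and pooled, 200 to 400 to a pool, with 1 library per state and date, and the labels place these dates from the opening of the corrosion cavity through fertilization to embryo growth or, without pollen, the start of abortion. The labels of the pollinated libraries name megagametophyte and embryo together, so RNA of the embryo may be in them. Scales, taken whole, and bracts were collected on 26 May, each as 1 library. Replicate libraries are missing throughout, so a test can take its error only from the other state or from other dates. In pools of tissue, a change in the number of cells of a type and a change in RNA per cell cannot be told apart.

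The values were read as log2(FPKM + 1), and sums over the table were 466481 to 561810 FPKM per library. Read depth per library is unknown, so no counting interval is given. The table gives contigs by identifier without gene names, so what the 73 transcripts encode is not described here and no sequences are shown. Contigs at 10 FPKM or more numbered 8468 to 8815 per library, and the median of all contigs was 0.54 to 1.45 log2 units.

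As a group the 73 contigs went from a trace of the summed FPKM to a larger share. The choice of members by their 10 June and 6 July values fixed the direction of this rise. Their sum with pollen was 263, 1021, 9202 and 17549.9 FPKM on 10, 22 and 30 June and 6 July. Without pollen the sums were 109, 1274, 4107 and 15815 FPKM on the same dates. The share of all FPKM was thus 0.0493% and 0.0194% on 10 June and 3.70% and 3.31% on 6 July, against 0.645% in scales and 0.768% in bracts. The 2 states were nearly equal at the end, and the pollinated sum was more than the unpollinated one on 30 June. On 6 July the 5 most abundant members made up 36.0% of the pollinated and 34.9% of the unpollinated sum.

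**Figure D1:**
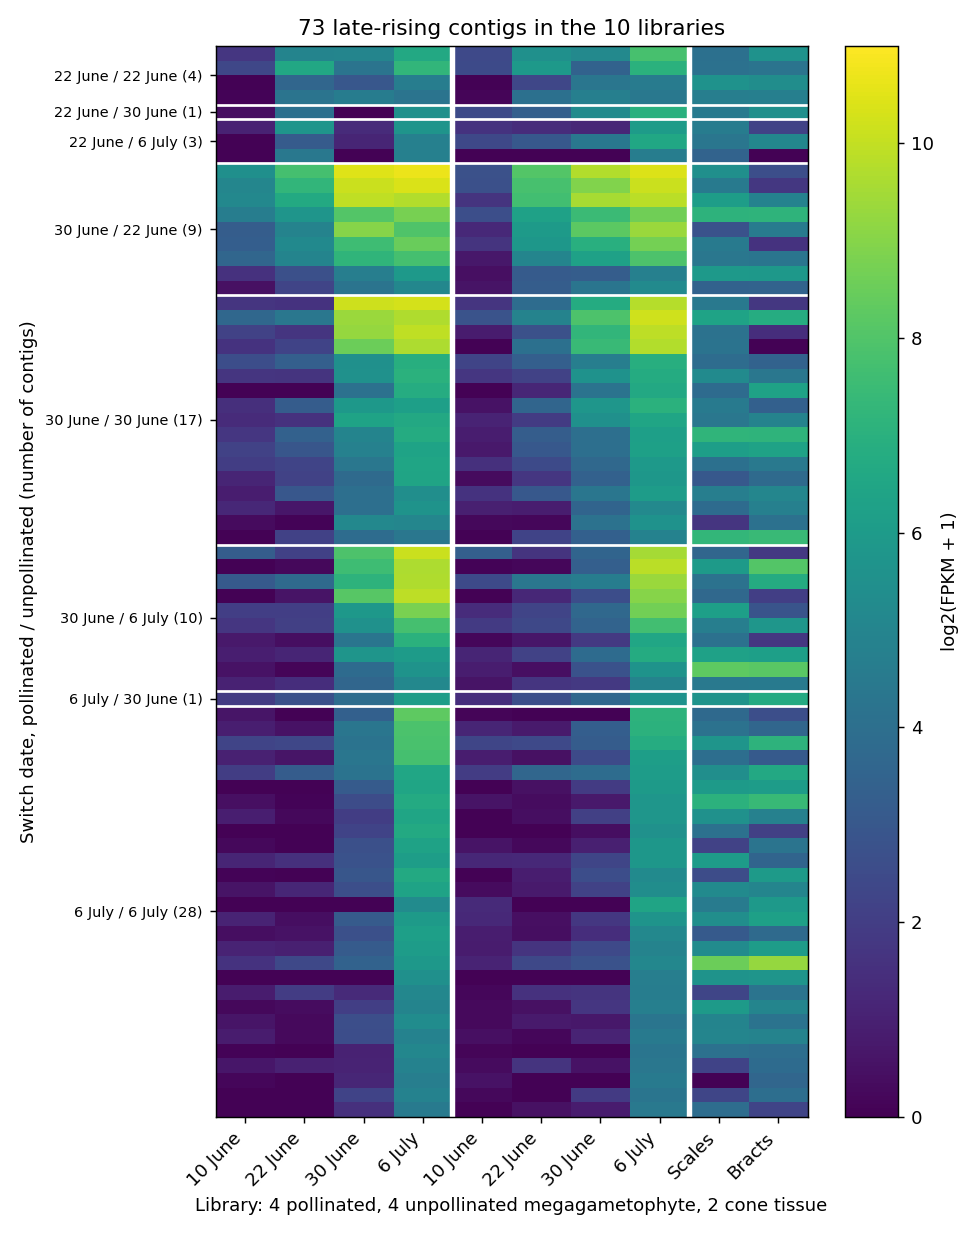
Colour gives log2(FPKM + 1) of each of the 73 contigs (rows) in the 4 pollinated, 4 unpollinated and 2 cone tissue libraries (columns). Rows are grouped by the first date past the halfway level in each state; the 28 contigs at the bottom stay dark until 6 July in both states.

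The median member stood at 1.01, 2.25, 16.4 and 84.0 FPKM on the 4 dates with pollen. Without pollen the medians were 0.790, 2.34, 9.56 and 66.6 FPKM. The medians in scales and bracts were 21.3 and 22.9 FPKM. On 6 July the members ranged from 17.9 to 1639.6 FPKM in the pollinated and from 18.2 to 1350.2 FPKM in the unpollinated library, so a set joined by a common direction covered a wide range of levels. On 10 June 36 of the 73 were under 1 FPKM in pollinated and 42 in unpollinated megagametophytes.

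The limits of the rule fell between close values of the measures it used. GAZW02045510 had the smallest rise inside, 4.0 log2 units in the lower state, and GAZW02082950 the largest outside, 3.99. The cone value nearest the limit was 10.2 FPKM inside for GAZW02052747 and 9.93 FPKM outside for GAZW02075060.

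The question of when these contigs switch on in each pollination state was addressed with the dates between. The switch date was set as the first date on which a contig was at or above the midpoint, on the log2 scale, between its 10 June and 6 July values in the same state. With pollen 8 members switched on 22 June, 36 members on 30 June and 29 members on 6 July. Without pollen the numbers were 13, 19 and 41. By 30 June 44 of 73 (60.3%) were past halfway with pollen and 32 of 73 (43.8%) without. Among all 151 contigs with the same rise at any cone level, the members included, these shares were 68.9% and 49.0%.

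Both shares were lower in the members than in the wider group, a difference that was not tested because contigs are not replicates. The 78 contigs low in cone tissue had 60 past halfway by 30 June in the pollinated and 42 in the unpollinated state. On the linear FPKM scale, where the midpoint lies near the final level, only 20 members in the pollinated and 5 in the unpollinated state were past it by 30 June.

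**Figure D2:**
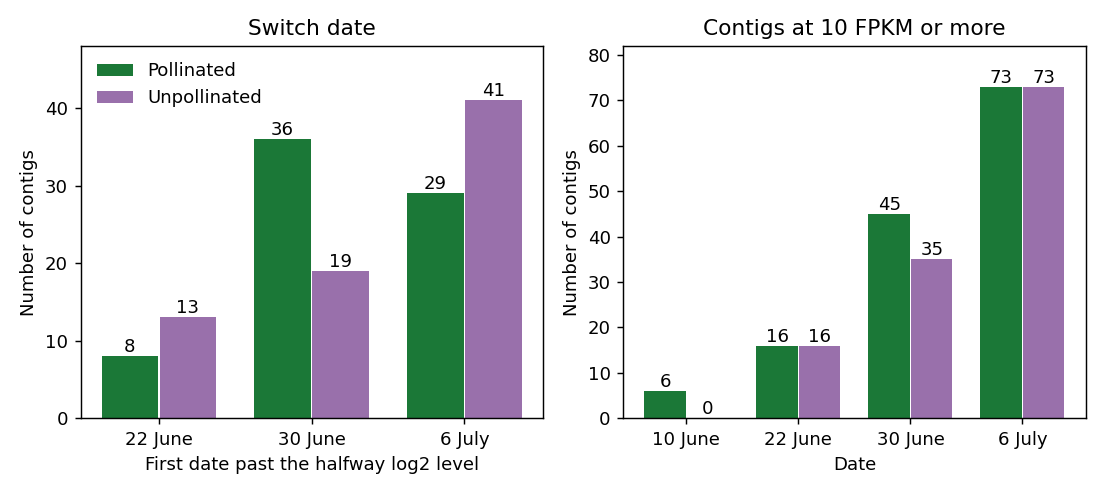
Left, number of the 73 contigs by the first date at or above their halfway log2 level in pollinated and unpollinated megagametophytes. Right, number at 10 FPKM or more on each date; 45 pollinated and 35 unpollinated on 30 June, and all 73 on 6 July by the choice of members.

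The course between the dates shows the same order in steps. From 10 to 22 June the median change was 0.36 log2 units in pollinated and 0.85 in unpollinated megagametophytes. From 22 to 30 June it was 2.20 with pollen and 1.21 without. From 30 June to 6 July it was 2.31 with pollen and 2.88 without. The last interval held the largest step of 33 members in the pollinated and 48 in the unpollinated state, and the middle interval that of 34 and 8. With pollen the change was split evenly over the last 2 intervals, and without pollen more of it fell in the last.

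The interval from 22 to 30 June was tested on its own, since its 4 libraries were not used to choose the members. In limma with pollination state as a term, none of the 68 members with a mean of 1 FPKM or more in those libraries passed at an adjusted p under 0.05, and neither did any of the 24696 contigs tested (0% called). At an unadjusted p under 0.05, 47 of the 68 were higher on 30 June, against 10.8% of all contigs tested, and 1 was lower. The median fitted change was 1.70 log2 units in the members and 0.17 in all contigs tested. A contig chosen for a rise over the whole period is likely to be higher at the later of any 2 dates within it, so these counts are not independent of the rule in their direction.

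GAZW02036895 had the largest change among the members with the smallest adjusted p. It was chosen after its values were seen. The library of 22 June with pollen had 0.0792 FPKM of it and that of 30 June 34.0 FPKM, and without pollen the values were 0.149 and 16.8 FPKM. The limma difference was 4.49 ± 0.40 (SE) log2 units with adjusted p 0.0714. The test had 1 residual degree of freedom. Without the term for pollination state, 20 members passed as higher and 1 as lower on 30 June, with a smallest limma adjusted p of 0.018. In that fit 553 of all 24696 contigs tested passed as higher and 1019 as lower. Taken state by state, 57 of the 68 were 2-fold or more higher on 30 June with pollen and 46 without, where 14.8% and 10.8% of all contigs tested were.

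The largest class switched on only by 6 July in both states and held 28 members. Its median stayed at 0.516 and 0.210 FPKM on 10 and 22 June with pollen, was 5.23 FPKM on 30 June and reached 66.9 FPKM on 6 July. Without pollen the median was 0.306, 0.400, 2.23 and 39.0 FPKM. Of this class, GAZW02058142 had the highest level on 6 July. It stood at 0.537, 0.0497, 9.27 and 303 FPKM on the 4 dates with pollen and at 0.102, 0.0425, 0.0497 and 139 FPKM without. Scales had 12.5 FPKM and bracts 5.19 FPKM of it. The unpollinated value was still at the bottom of the range on 30 June and the pollinated one had left it. GAZW02083391 followed at 0.919, 0.434, 18.8 and 235 FPKM with pollen and 0.753 to 132 FPKM without, and scales and bracts held 16.5 and 11.2 FPKM.

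A class of 17 members switched on 30 June in both states. Its median went from 3.56 FPKM on 22 June to 34.0 FPKM on 30 June with pollen and from 5.68 to 18.8 FPKM without. GAZW02003094 was its most abundant member on 6 July by the mean log2 value of the 2 states. It stood at 2.27, 2.10, 1151 and 1251 FPKM on the 4 dates with pollen, and at 2.25, 13.8, 107 and 878 FPKM without. With pollen it was near its 6 July level by 30 June, and without pollen it was far under it, although on 22 June the library without pollen was the higher. GAZW02044342 stood at 11.8, 19.4, 656 and 814 FPKM with pollen and 6.06, 28.9, 245 and 1167 FPKM without, again lower without pollen on 30 June and higher on 22 June and 6 July.

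In 14 members (19.2%) the switch date was earlier with pollen than without, in 10 (13.7%) it was earlier without pollen, and in 49 (67.1%) it was the same date. The 78 contigs low in cone tissue had similar shares, 24.4%, 14.1% and 61.5%, so this split is not particular to the members. Of the 14 members, 10 switched on 30 June with pollen and on 6 July without. Their median on 30 June was 55.0 FPKM with pollen and 9.76 FPKM without, and on 6 July 328 and 303 FPKM. GAZW02016736 stood at 8.58, 3.41, 245 and 1119.6 FPKM on the 4 dates with pollen and at 9.13, 2.16, 10.7 and 723 FPKM without. It was lower on 22 June than on 10 June in both states. GAZW02015617 was at 0.181 and 0.157 FPKM on 22 June with and without pollen. On 30 June it had 192 FPKM with pollen and 9.20 FPKM without, and 6 July brought 791 and 935 FPKM.

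The 9 members that switched on 22 June without pollen and on 30 June with pollen included the most abundant contigs of the set. GAZW02062345 stood at 43.6, 213, 1408 and 1639.6 FPKM on the 4 dates with pollen and at 5.54, 262, 854 and 1350.2 FPKM without. GAZW02062346, with the next identifier number, stood at 31.7, 152, 1119.6 and 1322 FPKM with pollen and 5.41, 223, 477 and 1104 FPKM without. Both were already present with pollen on 10 June and low without it. On 10 June 8 of the 9 were higher with pollen, with a median difference of 2.0 log2 units, and the midpoint that sets the switch date depends on that starting level. On 22 June all 9 were higher without pollen, by 0.05 to 1.08 log2 units, and on 30 June 8 of the 9 were higher with pollen.

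The course was not even in every member. Values were never lower on a later date in 40 members with pollen and 48 without. The 4 that switched on 22 June in both states had medians of 24.1 FPKM with and 30.2 FPKM without pollen on that date. GAZW02011566 stood at 4.13, 96.7, 17.6 and 148 FPKM with pollen and at 4.62, 60.4, 9.93 and 129.7 FPKM without, high on 22 June, lower on 30 June and high again on 6 July in both states. GAZW02090961 stood at 2.34, 30.3, 30.8 and 100.1 FPKM with pollen and at 4.31, 44.6, 35.0 and 219 FPKM without, with little change between 22 and 30 June. In the limma test GAZW02011566 was the 1 member lower on 30 June at an unadjusted p under 0.05, at -2.44 ± 0.18 (SE) log2 units with adjusted p 0.0714.

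In another 4 members a dip of 2-fold or more on 30 June was seen with pollen and not without. GAZW02090989, alone in switching on 22 June with pollen and 30 June without, stood at 0.338, 15.7, 0.0425 and 45.2 FPKM with pollen and at 4.78, 9.06, 38.1 and 125 FPKM without. GAZW02040127 stood at 0.0353, 7.88, 1.19 and 26.9 FPKM with pollen and at 4.17, 7.17, 20.3 and 93.4 FPKM without. Without pollen both were higher on each later date, and with pollen both were lower on 30 June than on 22 June. GAZW02013112 stood at 52.1 FPKM on 22 June, 1.55 FPKM on 30 June and 51.3 FPKM on 6 July with pollen, and at 1.62, 1.31 and 63.9 FPKM without. GAZW02034752 stood at 20.4, 0.0353 and 26.5 FPKM on those dates with pollen and at 0.0425, 0.0353 and 24.6 FPKM without. Their 22 June level with pollen thus has no counterpart without pollen and was gone 8 days later. Each of these values rests on 1 library. A drop of 2-fold or more between neighbouring dates occurred in 7 members with pollen and 4 without. Drops, and members never lower on a later date, were counted in the members alone. Whether these counts are unusual among contigs with such a rise is therefore not known.

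The states were set side by side on each date without a test. Over all 73 members at any level, 40 were higher with pollen and 29 without on 10 June, a date the rule used, with a median difference of 0.04 log2 units. On 22 June 21 members were higher with pollen and 47 without, with a median difference of -0.15 log2 units. On 30 June 60 were higher with pollen and 11 without, with a median of 0.77. The background was the 27065 contigs that averaged at least 1 FPKM over the 8 megagametophyte libraries. In it 11521 were higher with pollen and 15014 without on 10 June. The numbers were 13623 and 12830 on 22 June and 14296 and 12270 on 30 June. Under 1 FPKM on 22 June were 28 members with pollen and 27 without, so some signs of that date rest on low values. With a minimum of 10 FPKM in either library, 6 members were left on 10 June. Of these, 5 were 2-fold or more higher with pollen (4% of all contigs) and 0 without (2.68%), with a median of 2.56 log2 units. All 6 reached 10 FPKM in the pollinated library, while the highest member in the unpollinated one stood at 9.13 FPKM. The minimum thus kept only members higher with pollen, so nothing is read from the counts of 10 June. Of the 20 members at 10 FPKM or more in either library of 22 June, 3 were 2-fold or more higher with pollen, where 5.2% of all contigs at that level were, and 3 were higher without, where 1.67% were. Of the 48 at that level on 30 June, 18 were 2-fold or more higher with pollen (4.74% of all contigs) and 3 without (4.93%), with a median of 0.83 log2 units. On 6 July, where the choice of members used both libraries, 10 and 5 of 73 were 2-fold or more higher with and without pollen, against 4.47% and 4.08% of all contigs.

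**Figure D3:**
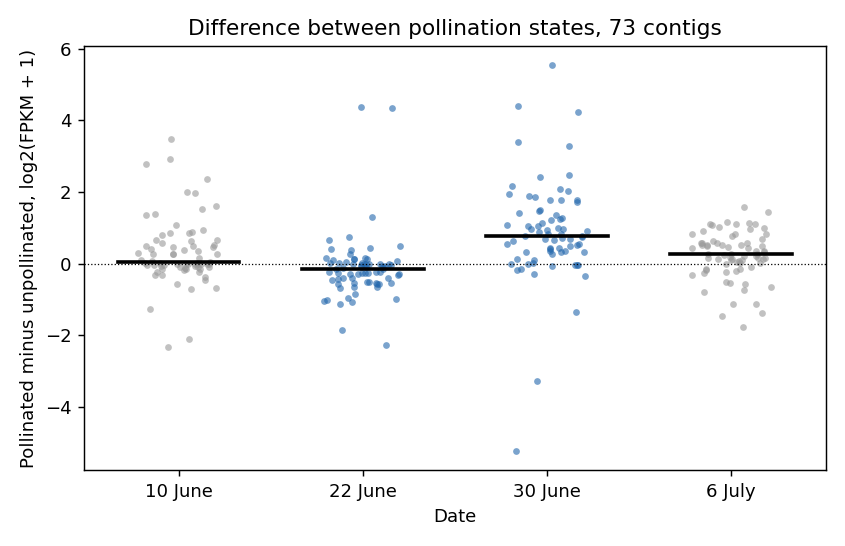
Each point is 1 of the 73 contigs, and the y axis gives its log2(FPKM + 1) value in the pollinated minus that in the unpollinated library of the same date. Black bars are medians, -0.15 on 22 June and 0.77 on 30 June; grey points are dates used in the choice of members.

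GAZW02053953 had the widest gap towards pollinated megagametophytes on 30 June. It stood at 285 FPKM with pollen and 5.15 FPKM without, a difference of 5.54 log2 units, after 0.505 and 1.35 FPKM on 22 June. GAZW02016736 was next at 4.39 log2 units. In the other direction GAZW02090989 differed by -5.23 and GAZW02040127 by -3.28 log2 units on that date. On 22 June GAZW02034752 and GAZW02013112 were higher with pollen by 4.36 and 4.34 log2 units, and GAZW02003094 and GAZW02100832 lower by -2.26 and -1.86.

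The same turn from 22 to 30 June was present in a much wider set of contigs. Of 1353 contigs 4-fold or more higher on 6 July than on 10 June in both states, 29.7% were higher with pollen on 22 June and 74.1% on 30 June, where the members had 28.8% and 82.2%. The 2440 contigs 4-fold or more lower on 6 July had 86.3% and 37.2%. The rising contigs, the members among them, thus turned towards pollinated megagametophytes, and the falling contigs turned the opposite way. The part of this wider turn in the members' difference was not tested.

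The difference between states was tested in limma with date as a block. In the 4 libraries of 22 and 30 June, a fit added after the data were seen and the one that uses no library of the rule, none of the 68 members tested passed at an adjusted p under 0.05 (smallest limma adjusted p 1), and 0% of the 24696 contigs tested were called. At an unadjusted p under 0.05 there was 1 member, against 2.26% of all contigs tested. The median difference was 0.38 log2 units in the members and 0.02 in all contigs tested, and 51 of the 68 were higher with pollen. This fit averages the difference over both dates, on which the medians of the 73 members were -0.15 and 0.77 log2 units. Its error is the change in that difference between the dates, so it cannot decide on the difference of either date alone.

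Fits over all 8 libraries take part of their values from 10 June and 6 July, which the rule used in both states, so they are given as counts from which nothing is read. With date as a block, none of the 73 passed (smallest limma adjusted p 0.861) and 0.00369% of the 27065 contigs tested were called. At an unadjusted p under 0.05 there were 8 of 73, against 4.81% of all contigs. For a change in the difference from the first 2 to the last 2 dates, no member passed either (smallest limma adjusted p 0.608) and 0% of all contigs were called. At an unadjusted p under 0.05 there were 7 members, against 8.11% of all contigs. With 2 residual degrees of freedom and no contig called, this last fit cannot tell whether the course of a single member differed between the states.

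The 6 July level was compared with cone tissue as the question of how far the late megagametophyte shares these transcripts with the mother tree's cone. Scales and bracts were collected on 26 May, so tissue and date cannot be told apart in any comparison with them. On the mean log2 value of both 6 July libraries, 37 of 73 members were 2-fold or more above the higher of scales and bracts, 31 were within 2-fold and 5 were 2-fold or more below. Among all 10151 contigs at 10 FPKM or more in cone tissue, 5.25% were 2-fold or more above and 38.4% below. The choice of members used these columns, so nothing is read from that contrast. The median difference was 1.0 log2 units, from -3.76 to 6.19. With pollen 17 members, and without pollen 21, did not reach the higher cone level on any date.

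**Figure D4:**
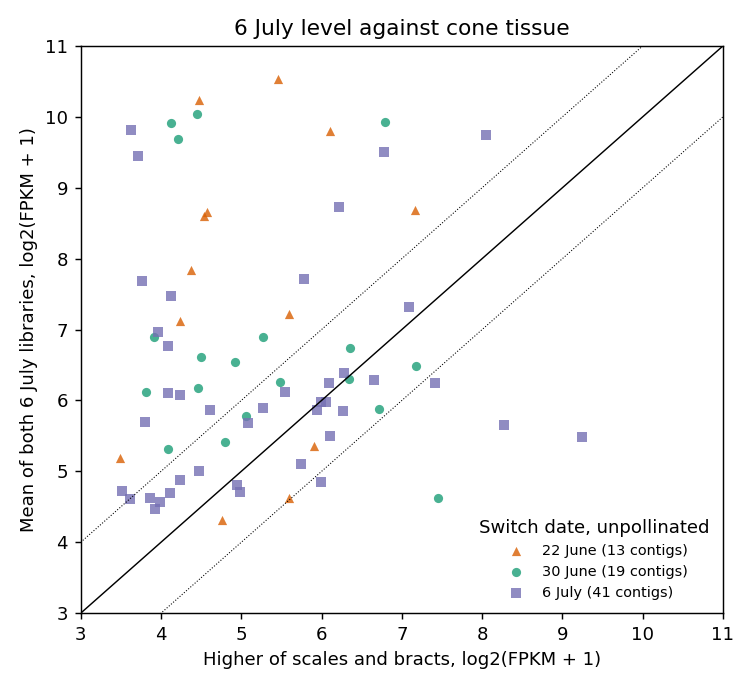
Mean log2(FPKM + 1) of both 6 July libraries against the higher of scales and bracts for the 73 contigs, with colour and shape giving the switch date in unpollinated megagametophytes. The solid line is equality and the dotted lines are 2-fold; 37 contigs lie on or above the upper and 5 on or below the lower dotted line.

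GAZW02016736 and GAZW02041025 stood farthest above cone tissue. GAZW02016736 was at 1119.6 and 723 FPKM on 6 July, whereas scales had 11.4 FPKM and bracts 2.51 FPKM, a difference of 6.19 log2 units from the higher one. GAZW02041025 was at 981 and 954 FPKM on 6 July, whereas scales had 16.5 FPKM and bracts 1.73 FPKM, a difference of 5.79. For such contigs the cone level was a small fraction of the final megagametophyte level.

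GAZW02043863 and GAZW02061750 were the farthest below. GAZW02043863 was at 57.5 and 33.5 FPKM on 6 July, whereas scales had 371 FPKM and bracts 608 FPKM, a difference of -3.76 log2 units. GAZW02061750 was at 19.5 and 28.7 FPKM on 6 July, whereas the cone tissues had 155 and 174 FPKM, a difference of -2.82. Both were thus far higher in each cone tissue than in any megagametophyte library.

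The cone comparison was also set out by switch date. The 4 members that switched on 22 June in both states had 2 at 2-fold or more above cone tissue, with a median difference of 0.59 log2 units. Of the 28 members that switched on 6 July in both states, 18 were within 2-fold of the higher cone tissue on 6 July, 7 above and 3 below, with a median of 0.38. Of the 17 that switched on 30 June in both, 11 were above, with a median of 1.62. Of the 9 that switched on 22 June without pollen and 30 June with pollen, 8 were above, with a median of 3.69. Of the 10 that switched on 30 June with pollen and 6 July without, 7 were above, with a median of 2.22. The values thus followed no single order of switch dates. Switch date and cone difference both use the 6 July libraries, so no test is given. Already on 30 June, 4 members with pollen and 1 without were at or above their 6 July value.

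Against each tissue alone, the median 6 July difference from scales was 2.09 log2 units with pollen and 1.98 without. From bracts it was 1.58 and 1.48. The pollinated library was 2-fold or more above scales for 48 members and above bracts for 43, and the unpollinated library for 48 and 41.

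Most members were present in both cone tissues. At 10 FPKM or more in both stood 46 of 73, in scales alone 17 and in bracts alone 10. Among all contigs 8700 reached that level in scales and 8736 in bracts, and 10151 did so in either. Most of those were thus in both as well, and presence in both is no trait particular to the members. Between the 2 tissues, scales were 2-fold or more above bracts for 18 members and bracts above scales for 18, where 9.84% and 12.5% of the 10151 contigs at that cone level were. Which of the tissues was higher played no part in the choice, and the comparison has 1 library on each side and no test. The median difference was -0.05 log2 units, against 0.02 in all contigs at that cone level.

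GAZW02100832 and GAZW02034752 leaned most to scales. Scales held 17.5 FPKM of GAZW02100832 and bracts 0.0497 FPKM, and the 6 July megagametophytes 797 and 848 FPKM with and without pollen. Of GAZW02034752 scales held 10.5 FPKM and bracts 0.0353 FPKM. In the other direction, bracts held 11.2 FPKM of GAZW02045510 and 62.6 FPKM of GAZW02090443, and scales 0.0497 and 4.90 FPKM. Both contigs that leaned most to scales were thus at the bottom of the range in bracts.

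The 18 members biased to scales had the highest median 6 July level of the 3 groups so formed, while single members of the other groups stood above that median. The median of their mean 6 July level was 404 FPKM, against 70.9 FPKM for the 18 biased to bracts and 56.7 FPKM for the 37 within 2-fold. Of these 18, 16 were 2-fold or more above scales on 6 July and none 2-fold or more below. In the group biased to bracts 8 of 18 were above, and in the balanced group 13 of 37 above and 5 below. These groups were formed after the data were seen, and the pattern is given as a description.

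**Figure D5:**
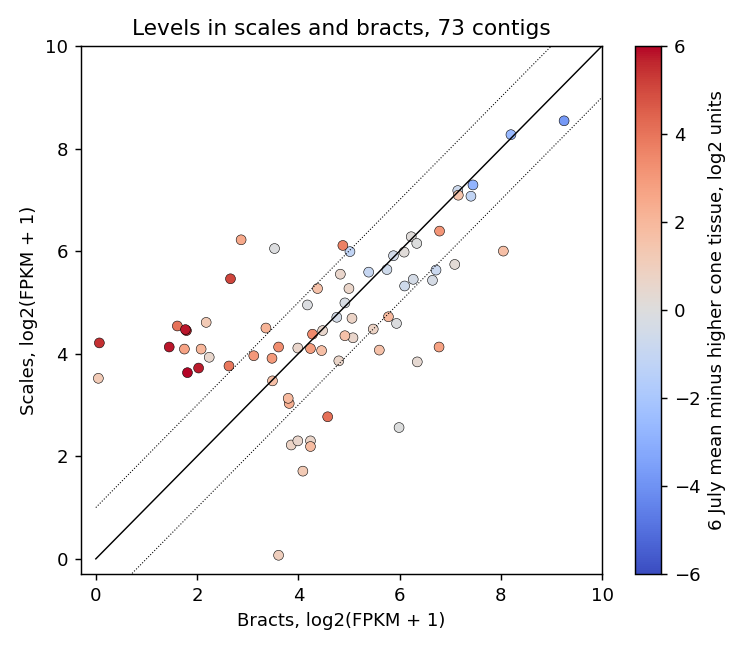
log2(FPKM + 1) in scales against bracts for the 73 contigs, with colour giving the mean 6 July megagametophyte value minus the higher cone value. The solid line is equality and the dotted lines are 2-fold; the darkest red points, up to 6.19 log2 units above cone tissue, lie on the scale side.

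Some members may be pieces or relatives of 1 gene. Of the 73, 13 had another member within 10 identifier numbers, in 6 runs, and in 5 of the 6 runs all members shared the same pair of switch dates. The run GAZW02043861, GAZW02043863 and GAZW02043865 was the exception. As 1 class alone held 28 of the 73, members with distant numbers also often share a pair of dates. How often they do was not counted. The table does not say what neighbouring numbers share, and related contigs can divide reads between them, so the 73 need not be 73 genes.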

How the data were processed

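The authors deposited 1 table of log2 values for 54889 contigs in 10 libraries. It was read as log2(FPKM + 1), with values from 0.01 to 12.28. No source used here states the base of the logarithm or what was added before it. Per the submitters' processing notes, the tools were RSEM 1.2.12 and Bowtie 1.0.1, with FastQC 0.10, bedtools 2.17, Trim Galore 0.2 and R 3.1.0, no roles being stated. Each contig reached at least 1.01 in 1 library or more. Differences are on the log2(FPKM + 1) scale (pseudocount of 1 FPKM), which understates the change of low contigs. The members, the tests and the naming rule were chosen with earlier results of these data known. In each class or comparison at most 2 contigs per direction were named, by the highest 6 July mean or the largest difference.

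Tests used limma 3.58.1 in R 4.3.3 (eBayes with an intensity trend) on all contigs whose mean FPKM in the tested libraries was at least 1, with Benjamini-Hochberg adjustment over all of them. They were checked on simulated data. Residual degrees of freedom were 1 for the change from 22 to 30 June, 3 for the pollination difference over 8 libraries (1 over the 4 of 22 and 30 June) and 2 for its change with date. With 1 library per group, p-values measure only the variation between states and dates. Single pairs of libraries were compared by a 2-fold difference where either value was at least 10 FPKM. Summaries used Python 3.11.15, pandas 2.3.3, numpy 2.4.6 and scipy 1.17.1, and plots matplotlib 3.10.9. Contigs carry no gene names in the table, so gene lists and sequences were not used here.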

Additional observations from a re-analysis of the deposited data

Results flagged for a closer look

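Among the contigs named, 2 moved 2-fold or more in opposite directions from 22 to 30 June in the 2 pollination states. GAZW02090989 changed by -4.0 log2 units with pollen and by 1.96 without. GAZW02040127 changed by -2.02 log2 units with pollen and by 1.38 without. Each change compares 1 library with 1 library, and the difference between the states was not tested for this interval.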

How the results depend on the processing

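Of 84 values under alternative settings, 66 kept their size or side of the threshold. Many of these were limma counts that stayed at 0 members in fits that called almost no contig, so they are no sign of stability. The 16 values that moved were all shares of members. Past halfway by 30 June were 60.3% of members with pollen and 43.8% without. These became 91.8% and 75.3% at 25% of the way, 32.9% and 19.2% at 75% of the way, 27.4% and 6.85% on the linear FPKM scale, and 57.2% without pollen for the 222 contigs with a rise of 3 log2 units or more. In each of these settings that covered both states the pollinated share was the higher. On 30 June 37.5% of members at 10 FPKM or more were 2-fold or more higher with pollen. For the 31 contigs with a rise of 5 log2 units or more this share became 68.2% (15 of the 22 at that level), and at 4-fold it was 18.8%. On 22 June 15.0% became 0% (0 of 7) at a rise of 5. The share above cone tissue on 6 July, 50.7%, was 34.2% at a rise of 3, 71.0% at a rise of 5, 36.7% at 20 FPKM or more in cone tissue, 31.5% at 4-fold and 63.0% against the mean of both tissues. The share biased to scales, 24.7%, was 38.7% at a rise of 5. The limma test of 22 to 30 June gave 0 members as higher, 4 with a pseudocount of 5 FPKM and 20 without the pollination term. Of all 24696 contigs tested, 54 passed as higher with that pseudocount and 553 without the pollination term. Leaving out any 1 library gave 0 members in both pollination tests (smallest limma adjusted p 0.452 to 0.999). For 22 to 30 June it leaves no residual degree of freedom and was not run. Quantile normalization shifted the median of all contigs in bracts by -0.266 log2 units and of no other library by over 0.1. Date as a block pairs the 2 states, and without the block the pollination test also gave 0 members (smallest limma adjusted p 1); the labels number no replicates. Unknown depth limits values under 1 FPKM most.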
